A study of Oryza sativa Japonica Group with 12 samples.

Results

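Nicotianamine is a small metal chelator that plants make from S-adenosylmethionine by the enzyme nicotianamine synthase. It binds iron, zinc, copper and other metals and keeps them mobile in the sap. Grasses such as rice also convert it, through nicotianamine aminotransferase, into mugineic acids, which roots release to take up iron. Yellow stripe-like (YSL) proteins carry the metal complexes of nicotianamine and mugineic acids across membranes, and in rice OsYSL2 is known as a carrier of iron and manganese bound to nicotianamine in the phloem. The genes described here are the nicotianamine synthase genes NAS1 (LOC4332608) and NAS3 (LOC4344361) and the transporter gene YSL2 (LOC4330161). They were taken by gene identifier, each had 1 probe set, and together they make 3 of the 24251 probe sets that the annotation pairs with a gene.

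The genes were chosen by their differences between overexpressing and null lines on these same arrays. NAS3 had passed an adjusted p of 0.05 in limma on the mean of both couples of lines, and YSL2 had passed in couple 67.5. NAS1 had passed in neither and was noted for the size of its mean difference. The call of NAS3 was lost in 10 of the 12 fits that leave out 1 array and remained without null 67.1 replicate 1 or OE 67.1 replicate 3. That of YSL2 was lost in 9 of them and remained without replicate 1 of null 67.1 or replicate 2 or 3 of OE 67.1. These differences are therefore a description and carry no p-value here. Beside those calls, limma called 0.186% of all tested probe sets on the mean of both couples and 0.342% in couple 67.5.

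The RNA was from the stem base, where crown roots arise, of rice seedlings 6 days old. All plants were of the crl1 mutant, which lacks crown roots, in the cultivar Taichung 65, so the null lines carry this mutation too. The overexpressing (OE) lines OE 67.1 and OE 67.5 carry a construct, pC5300.OE-OsbHLH044, for the transcription factor OsbHLH044, and the lines null 67.1 and null 67.5 are their respective null segregant sisters without the T-DNA. The promoter of the construct is not given in the sources used here. Each line is a single transgenic or sister line, and each of its 3 arrays came from an independent repetition, for which 10 to 15 stem bases were collected and several were ground together.

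Array medians ran from 4.34 to 4.39 (log2, all probe sets). The deposited values are after RMA, which evens the distributions of the arrays, so this does not show that the 12 arrays were alike before it. All 4 measured shoot meristem genes of the KNOX class (OSH1, OSH6, OSH15 and OSH71) lay above the array median on every array, as did 5 of 6 markers of green tissue and 2 of 6 root markers. None of the 5 seed markers did on any array. The mean over the root markers ranged from 3.82 to 4.09 across arrays. The mean over the green tissue markers was 6.55 to 6.63 on the arrays of null 67.1, 6.50 to 6.57 in OE 67.1, 6.70 to 6.93 in null 67.5 and 6.53 to 6.68 in OE 67.5. Every null 67.5 array thus lay above every other array, OE 67.5 included. The part of green tissue in the results below was not tested.

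NAS1 was the member that varied most. In null 67.1 its log2 level was 5.62, 3.81 and 5.33 in repetitions 1, 2 and 3. In OE 67.1 it was 4.39, 4.33 and 5.40. The arrays of this couple overlapped, and the lowest of the 6 belonged to the null line. In null 67.5 the level was 4.51, 5.97 and 7.73. In OE 67.5 it was 3.19, 3.09 and 3.49. All 3 OE 67.5 arrays lay below every other array of the series, and null 67.5 spread the widest of the lines. From highest to lowest, the line means were 6.07 ± 1.61 (SD, n = 3) in null 67.5, 4.92 ± 0.97 in null 67.1, 4.71 ± 0.61 in OE 67.1 and 3.26 ± 0.21 in OE 67.5. Only the step from OE 67.1 to OE 67.5 separated neighbours in this order without overlap of their arrays.

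**Figure D1:**
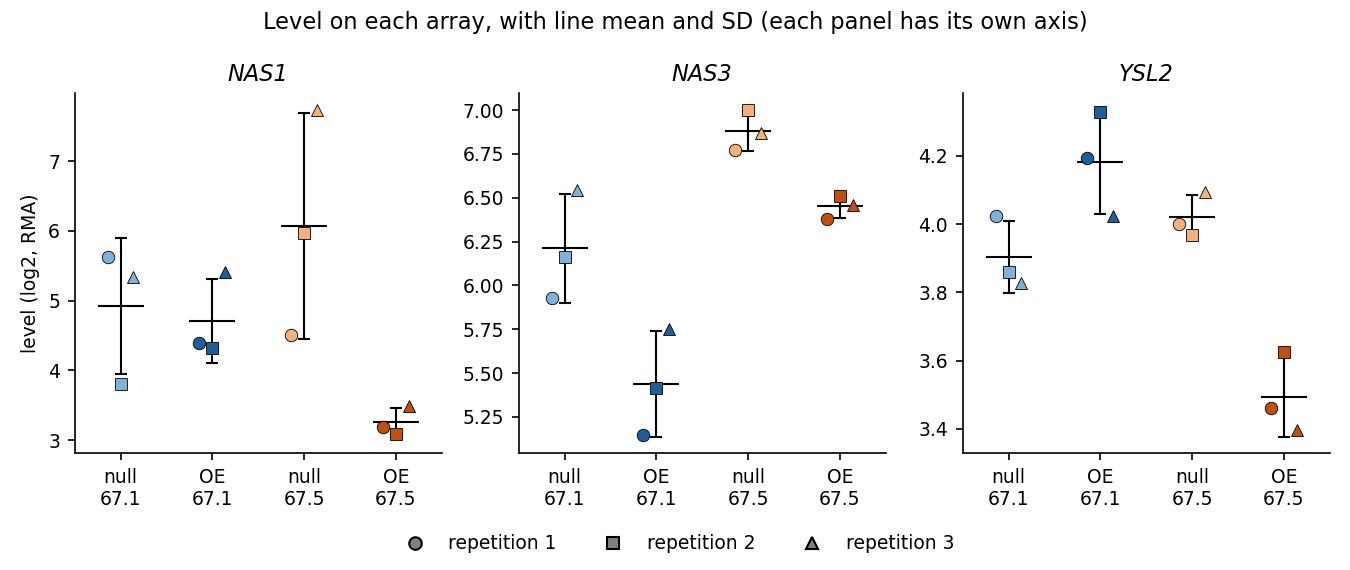
Log2 level of NAS1, NAS3 and YSL2 (vertical axes, each panel with its own range) in the 4 lines, with 1 symbol per array shaped by repetition, a bar at the line mean and whiskers of 1 SD (n = 3). NAS1 and YSL2 are lowest on the 3 OE 67.5 arrays, and NAS3 is lower in each OE line than in its null sister.

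In couple 67.5 NAS1 differed by -2.82 ± 0.61 (log2 difference, OE minus null, ± SE), a level 7.04-fold lower in the overexpressing line. By its size this was the most negative difference of all 24251 tested probe sets. In couple 67.1 the difference was -0.22 ± 0.61, and the mean of both couples was -1.51 ± 0.43. Null 67.5 replicate 3 weighed on these values. Without it the difference of couple 67.5 was -1.98, and without null 67.5 replicate 1 it was -3.59. In couple 67.1 the sign turned when null 67.1 replicate 1 was left out, to 0.13, and without replicate 2 of that line the value was -0.77. The difference between the couples, which is independent of the mean on which NAS1 was noted, was -2.60 ± 0.86 (95% interval -4.45 to -0.75) and did not pass in limma after adjustment over all probe sets (adjusted p = 0.805). Of all tested probe sets, 0.033% passed in this contrast. The miss does not show that the couples acted alike, since the interval is wide.

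The spread of NAS1 within lines was itself unusual. The pooled within-line SD was 0.995 on the log2 scale, the 5th largest of the 24251 probe sets, whose median was 0.135. For NAS3 it was 0.227 and for YSL2 0.114, the latter below the median of all probe sets. The large SE of NAS1 follows from this spread of single arrays.

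NAS3 showed another pattern. In null 67.1 its log2 level was 5.93, 6.16 and 6.55, and in OE 67.1 it was 5.15, 5.41 and 5.75. In null 67.5 it was 6.77, 7.0 and 6.87, and in OE 67.5 it was 6.38, 6.51 and 6.46. In each couple all 3 OE arrays lay below all 3 null arrays, and among the null lines, as among the overexpressing lines, every 67.5 array lay above every 67.1 array. Such a step was seen in 11.4% of all tested probe sets for the null lines and in 18.3% for the overexpressing lines. Among all tested probe sets, the OE arrays were below the null arrays in 4.48% for couple 67.1, in 6.88% for couple 67.5 and in 0.66% for both. As NAS3 was chosen for this contrast, nothing is read from that share. The order of the line means was null 67.5 (6.88 ± 0.11), OE 67.5 (6.45 ± 0.07), null 67.1 (6.21 ± 0.31) and OE 67.1 (5.44 ± 0.30), and the middle pair overlapped.

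For NAS3 the difference between overexpressing and null line was -0.77 ± 0.16 in couple 67.1 and -0.43 ± 0.16 in couple 67.5. On the mean of both couples it was -0.60 ± 0.11, which is 1.52-fold lower. With single arrays left out it ran from -0.68 to -0.52. Its sign could not turn there, since the OE and null arrays were separated in each couple. The difference between the couples was 0.34 ± 0.22 (95% interval -0.13 to 0.82, adjusted p = 0.992 in limma) and did not pass.

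The 67.5 lines were also compared with the 67.1 lines, averaged over overexpressing and null plants. This contrast between the families of lines is independent, in the balanced design, of the OE minus null contrasts that chose the genes. NAS3 was higher in the 67.5 family by 0.84 ± 0.11, or 1.79-fold (limma, adjusted p = 0.00245). The families overlapped on single arrays, as null 67.1 replicate 3 (6.55) lay above every OE 67.5 array (6.38 to 6.51). The call remained whichever single array was left out (highest adjusted p = 0.0108). The family difference of NAS3 was 0.67 ± 0.16 between the null lines and 1.01 ± 0.16 between the overexpressing lines. This contrast called 14.9% of all probe sets (8.7% higher and 6.22% lower in the 67.5 lines). Their number was 3620, against 1075 without null 67.5 replicate 3 and 5875 without null 67.5 replicate 1. Not all markers of green tissue differed in this contrast. CAB1R (0.18), PSAH (0.09), RBCS1 (0.07) and CAB2R (0.02) did not pass. The rubisco activase gene rca was higher in the 67.5 lines by 0.28 ± 0.06 (adjusted p = 0.0158) and the rubisco small subunit gene rbcS by 0.26 ± 0.08 (adjusted p = 0.0456), so 2 of the 6 green tissue markers passed and none of the 6 root markers did. The part of green tissue in the family difference of NAS3 was not tested. The labels do not say whether the families were grown or hybridised together, so family and any such batch cannot be told apart.

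NAS1 did not pass in the family contrast (-0.15 ± 0.43, 95% interval -1.08 to 0.77, adjusted p = 0.819). Its sign held in 9 of 12 fits that leave out 1 array, between -0.57 without null 67.5 replicate 3 and 0.24 without null 67.5 replicate 1. It also turned, to 0.02, without null 67.1 replicate 1 or OE 67.1 replicate 3. Null 67.5 was above null 67.1 by 1.15 ± 0.61, and OE 67.5 minus OE 67.1 was -1.45 ± 0.61. The first value was 0.32 without null 67.5 replicate 3, 0.59 without null 67.1 replicate 2 and 1.93 without null 67.5 replicate 1, and the arrays of the null lines overlapped.

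YSL2 was dim, with levels of 3.40 to 4.33 that lay under the array median on all 12 arrays, and RMA compresses differences at such levels. In null 67.1 its log2 level was 4.02, 3.86 and 3.83, and in OE 67.1 it was 4.19, 4.33 and 4.02. In null 67.5 it was 4.0, 3.97 and 4.09, and in OE 67.5 it was 3.46, 3.62 and 3.40. The OE 67.5 arrays stood below all 9 others, which lay between 3.83 and 4.33, and in couple 67.1 the highest null array met the lowest OE array. The order of the line means was OE 67.1 (4.18 ± 0.15), null 67.5 (4.02 ± 0.065), null 67.1 (3.90 ± 0.11) and OE 67.5 (3.49 ± 0.12). Neighbours among the upper lines overlapped.

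The difference of YSL2 was -0.53 ± 0.10 in couple 67.5, 1.44-fold lower in OE 67.5, and 0.28 ± 0.10 in couple 67.1, with the opposite sign. The mean of both couples was -0.12 ± 0.07. The couples differed by -0.80 ± 0.14, which is a description without a p or an interval because it holds the contrast that chose YSL2. Without each array in turn the difference ran from -0.59 to -0.48 in couple 67.5 and from 0.20 to 0.36 in couple 67.1. Neither sign could turn there, since the arrays of couple 67.5 were separated and those of couple 67.1 only met. The mean of both couples ran from -0.161 to -0.085. In the family contrast YSL2 was lower in the 67.5 lines (-0.29 ± 0.07, limma, adjusted p = 0.0226). Leaving out a single array ended this call in 4 of 12 cases. The adjusted p was then 0.0619 (null 67.1 replicate 1), 0.0561 (OE 67.1 replicate 2), 0.0524 (null 67.5 replicate 2) or 0.0565 (OE 67.5 replicate 3). The null lines went the other way (0.12 ± 0.10) and the overexpressing lines differed by -0.69 ± 0.10. The negative family value thus came from the overexpressing lines and is not a difference shared by the null lines. The difference of the overexpressing lines shares the OE 67.5 arrays with the contrast on which YSL2 was chosen and is a description. The family value holds these low arrays too, so its p is not read as separate support.

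**Figure D2:**
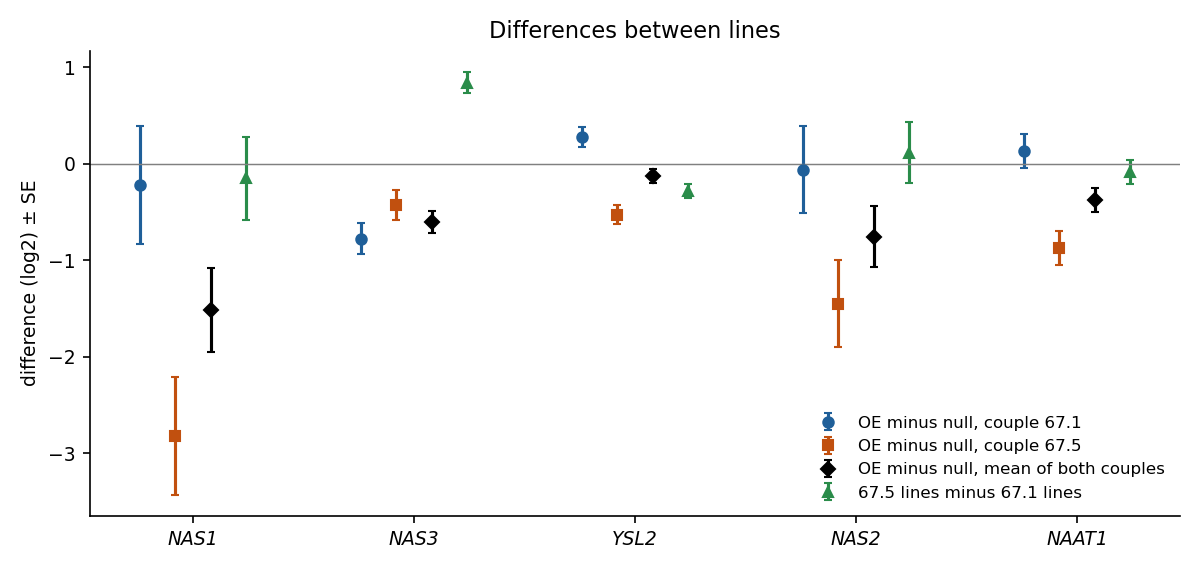
Log2 differences ± SE (vertical axis) of NAS1, NAS3, YSL2, NAS2 and NAAT1 for the OE minus null contrast in each couple and on their mean, and for the 67.5 lines minus the 67.1 lines. NAS1, NAS2, NAAT1 and YSL2 lie below 0 in couple 67.5, NAS3 lies below 0 in both couples and above 0 for the family contrast.

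The other measured genes on the list of nicotianamine and mugineic acid synthesis were NAS2 and NAAT1. NAS2 (LOC4332607) encodes another nicotianamine synthase and is the gene next to NAS1 in the gene table, with 0 genes between them. In null 67.5 its log2 level was 3.99, 4.43 and 6.40, and in OE 67.5 it was 3.43, 3.63 and 3.41. In couple 67.1 it was 3.99, 3.65 and 4.76 in the null line and 3.88, 3.89 and 4.45 in the overexpressing line. As for NAS1, the arrays separated in couple 67.5 and overlapped in couple 67.1. In couple 67.5 all OE arrays lay below all null arrays in 6.88% of all tested probe sets. The difference was -1.45 ± 0.45 in couple 67.5 (limma, adjusted p = 0.260) and -0.06 ± 0.45 in couple 67.1 (adjusted p = 1), and neither passed. As for NAS1, null 67.5 replicate 3 weighed on the value of couple 67.5, which was -0.72 without it and -1.92 without null 67.5 replicate 1. NAS1 and NAS2 are close paralogs. The probe sequences were not used here, and whether their probe sets share signal was not tested.

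NAAT1 (LOC9267778), for nicotianamine aminotransferase, takes the next step towards mugineic acids. Its log2 level was 4.29, 4.51 and 4.96 in null 67.5 and 4.15, 3.46 and 3.52 in OE 67.5. The OE arrays lay below the null arrays, by as little as 0.143 between the nearest pair. Such a separation was seen in 6.88% of all tested probe sets in this couple. In couple 67.1 the 3 OE arrays were almost equal (4.29 to 4.31) and lay within the null range of 4.05 to 4.32. The difference was -0.88 ± 0.18 in couple 67.5, just outside the threshold in limma (adjusted p = 0.0519), and 0.14 ± 0.18 in couple 67.1 (adjusted p = 1). NAAT1 passed in couple 67.5 in only 2 of the 12 fits that leave out 1 array. These were the fits without replicate 1 of null 67.5 (limma, adjusted p = 0.0477) or of OE 67.5 (0.0156). In the other fits the adjusted p reached 0.258. NAAT1 also passed after a further quantile normalization (0.0476) or a centring on array medians (0.0420). It missed with the replicate number as a block (0.0597) or with all probe sets tested (0.157). The difference between the couples did not pass for NAAT1 (-1.01 ± 0.25, adjusted p = 0.467) or NAS2 (-1.39 ± 0.63, adjusted p = 0.992).

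**Figure D3:**
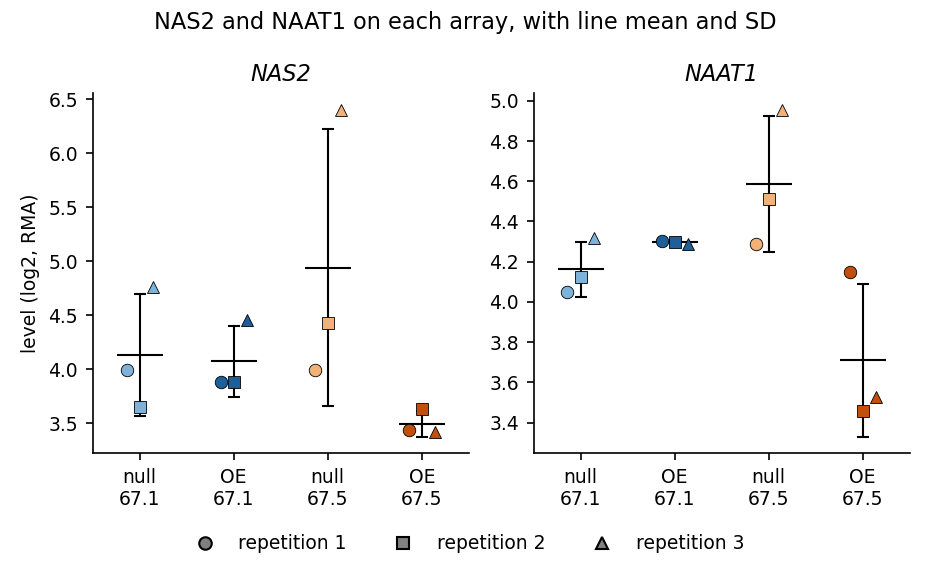
Log2 level of NAS2 and NAAT1 (vertical axes, each panel with its own range) in the 4 lines, with 1 symbol per array shaped by repetition, a bar at the line mean and whiskers of 1 SD (n = 3). In both genes the 3 OE 67.5 arrays lie below the 3 null 67.5 arrays, and the arrays of couple 67.1 overlap.

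The likeness of NAS1 and NAS2 went beyond the line means. Over the 12 arrays, NAS2 was the gene most like NAS1 of 24160 single-gene probe sets (Pearson 0.915, Spearman 0.902). After subtraction of the line means, the deviations of the same arrays still correlated at 0.872. This value leans on null 67.5, where both genes deviated most. Replicate 1 of that line was at -1.56 for NAS1 and -0.95 for NAS2, and replicate 3 at 1.66 and 1.46. The signs were opposite on null 67.1 replicate 1 and on replicates 2 and 3 of OE 67.5. NAAT1 and NAS1 correlated at 0.805 over the arrays and at 0.511 in the deviations. NAS3 did not follow NAS1, with 0.248 both over the arrays and in the deviations, nor did YSL2 follow NAS3 (-0.449 over the arrays). NAS1 and YSL2 correlated at 0.552 over the arrays and at 0.055 in the deviations, so their likeness lay in the line means. Both were chosen on contrasts that hold the OE 67.5 arrays, where both are lowest, so nothing is read from that likeness. These coefficients describe 12 arrays that share 4 lines and 3 repetitions, and they carry no p-value.

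**Figure D4:**
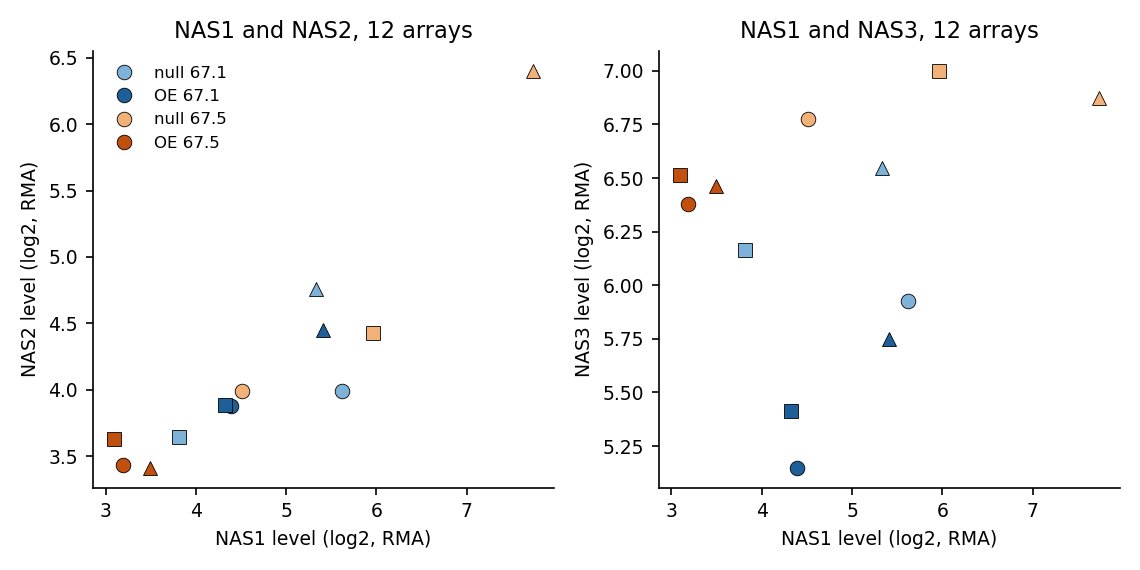
Log2 level of NAS2 (left) and NAS3 (right) against that of NAS1 (horizontal axes) on the 12 arrays, coloured by line and shaped by repetition. NAS2 rises with NAS1 across the arrays (Pearson 0.915), with null 67.5 replicate 3 at the upper end, while NAS3 groups by line.

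By the same measure the other named genes most like NAS1 were PIP1;3 (LOC4331194, 0.892), for a plasma membrane aquaporin, and MT-1-4b (LOC4352582, 0.856), for a metallothionein, a small metal-binding protein. LOC4331301, without an informative name, reached 0.910. MT-1-4b lay at 5.38 to 7.04 in null 67.5 against 4.05 to 4.82 in OE 67.5. LOC4331301 lay at 4.42 to 6.00 in null 67.5 against 2.61 to 2.85 in OE 67.5, again without overlap. As these genes were picked for their likeness to NAS1 on the same arrays, nothing is read from this. Of all tested probe sets, 6.88% had all OE arrays below all null arrays in couple 67.5.

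The genes most like NAS3 were LOC4350605, without an informative name (0.958), a7 (LOC4337257, 0.925), D2HGDH (LOC4342598, 0.924), for a D-2-hydroxyglutarate dehydrogenase, and OSL2 (LOC4336983, 0.912). Since they were picked for this likeness, their line means share the order of extremes with NAS3. For D2HGDH the line means ran from 4.53 ± 0.09 to 5.00 ± 0.06 (SD, n = 3), a smaller range than for NAS3.

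YSL2 was most like LOC4340969, without an informative name (0.939). The named genes most like it were LEA19 (0.859), for a late embryogenesis abundant protein, Trx20 (LOC4339117, 0.840), for a thioredoxin, and APR-like1 (LOC4343348, 0.838). These genes too were picked for their likeness to YSL2 on the same arrays. For APR-like1 the line means were 4.61 ± 0.18 in OE 67.5 and 5.12 ± 0.19 to 5.35 ± 0.15 in the other lines.

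The wider pathway was read from 7 lists of genes, matched by name, with 59 measured genes beside the members. None of the 59 passed in limma on the mean of both couples, in couple 67.1, in couple 67.5 or in the difference between the couples. The share of all probe sets that passed was 0.186%, 0.0165%, 0.342% and 0.033%, respectively. At an unadjusted p under 0.05 there were 6, 3, 5 and 5 of the 59, or 10.2%, 5.08%, 8.47% and 8.47%, against 9%, 3.46%, 10.8% and 5% of all tested probe sets. In couple 67.5, 42 of the 59 (71.2%) were lower in the overexpressing line, against 47.3% of all tested probe sets, with a median of -0.06 against 0.01 for all tested probe sets. In couple 67.1, 28 (47.5%) were lower, against 47.3%, with a median of 0.01 against 0.01.

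Upstream of the synthases, 6 genes that make S-adenosylmethionine or recycle its methionine were measured. Their differences in couple 67.5 lay between -0.32 and 0.04. The lowest was ARD4 (LOC4348647), for an acireductone dioxygenase of the methionine cycle (-0.32 ± 0.11, limma, adjusted p = 0.305). Its arrays overlapped in couple 67.1. Its OE arrays lay below its null arrays in couple 67.5, as in 6.88% of all tested probe sets. The S-adenosylmethionine synthetase genes SAM1 (LOC4337733) and SAM2 (LOC4326996) differed there by -0.15 ± 0.10 and -0.07 ± 0.09 and did not pass (adjusted p = 0.578 and 0.827). IDI2 (LOC4350083), of the methionine cycle, had the smallest p of this list on the mean of both couples, with 0.11 ± 0.07 (adjusted p = 0.655).

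Among carriers, the other 17 YSL genes differed by -0.35 to 0.15 in couple 67.5, with a median of -0.04. YSL15 (LOC9268232), for an uptake transporter of iron bound to mugineic acids, lies close to YSL2, with 1 gene between them in the gene table. It was also dim (2.62 to 3.12) and differed by -0.03 ± 0.09 in couple 67.5 and -0.16 ± 0.09 in couple 67.1. TOM1 (LOC4330406) and TOM2 (LOC4349503), for exporters of mugineic acids, differed on the mean of both couples by -0.02 ± 0.08 and -0.02 ± 0.06. In couple 67.5 the 95% interval of TOM1 was -0.28 to 0.23.

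Iron uptake, storage and regulation showed no call for overexpression either. On the list of chelator efflux and iron uptake, NRAMP2 was lowest on the mean of both couples (-0.215 ± 0.082, limma, adjusted p = 0.454). In couple 67.5 the lowest was IRT2 (-0.281 ± 0.116, limma, adjusted p = 0.410). The iron transporter gene IRT1 (LOC4333669) differed by 0.08 ± 0.07 on the mean of both couples, and the vacuolar iron transporter genes VIT1 (LOC4336075) and VIT2 (LOC4346978) by -0.07 ± 0.08 and -0.06 ± 0.08. NRAMP1 (LOC4342862), for an iron transporter, had OE arrays above null arrays in couple 67.1 and below them in couple 67.5, a pattern found in 0.408% of all tested probe sets, and its difference between the couples did not pass (limma, adjusted p = 0.667). IDEF1 (LOC4344415), a transcription factor gene of the iron deficiency response, differed by 0.05 ± 0.08, and IRO3 (LOC4332972), for a bHLH factor of that response, by -0.02 ± 0.07. The 20 genes of the zinc and heavy metal list had a median of -0.03, on the mean of both couples, with the zinc transporter gene ZIP1 (LOC4326394) at -0.29 ± 0.13 (adjusted p = 0.541).

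In the family contrast 5 of the 59 passed, or 8.47%, against 14.9% of all probe sets. The metal transporter gene NRAMP2 (LOC4332012) was higher in the 67.5 lines by 0.42 ± 0.08 (adjusted p = 0.0127), YSL9 (LOC4336545) by 0.44 ± 0.14 (0.0430) and the zinc transporter gene MTP1 (LOC4337694) by 0.23 ± 0.06 (0.0293). YSL15 was lower by 0.31 ± 0.06 (-0.31 as 67.5 minus 67.1, adjusted p = 0.0132) and the iron transporter gene IRT2 (LOC4333667) by 0.35 ± 0.08 (-0.35, adjusted p = 0.0197). With single arrays left out, NRAMP2 and YSL15 passed in 12 of 12 fits. IRT2 missed the threshold when null 67.1 replicate 1 or OE 67.5 replicate 3 was absent. MTP1 passed in 6 fits, those without null 67.1 replicate 3, OE 67.1 replicate 1 or 3, null 67.5 replicate 1, or OE 67.5 replicate 1 or 2. YSL9 passed in 2, those without replicate 3 of null 67.1 or replicate 1 of null 67.5. After a further quantile normalization MTP1 was at 0.10 ± 0.06 (adjusted p = 0.287) and YSL9 at 0.38 ± 0.13 (0.0769), both without a call, while NRAMP2, YSL15 and IRT2 passed. The number of pathway genes that passed was 12 without null 67.5 replicate 1.

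**Figure D5:**
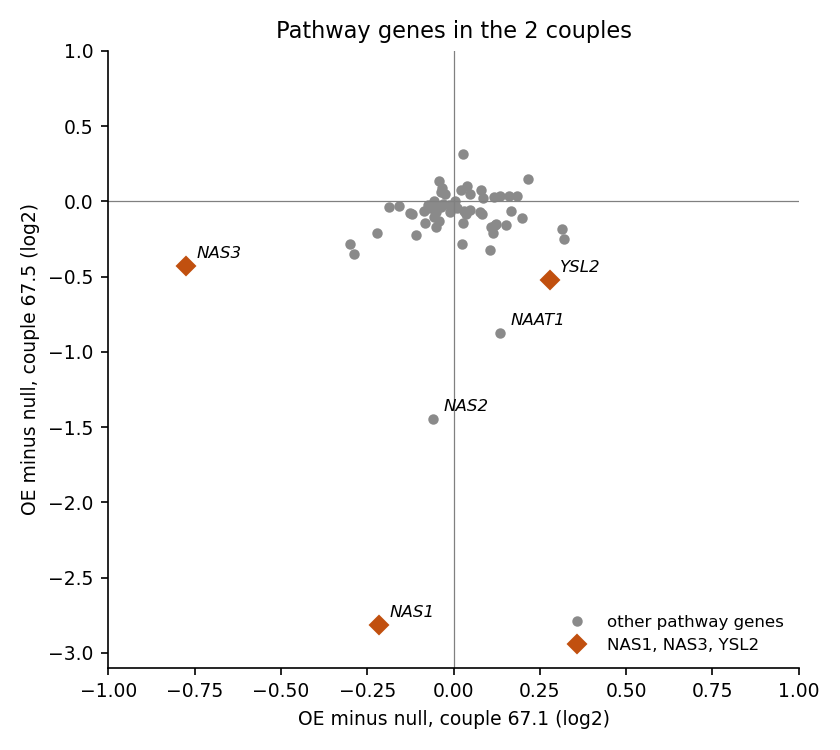
Log2 difference OE minus null in couple 67.5 (vertical axis) against couple 67.1 (horizontal axis) for NAS1, NAS3 and YSL2 (diamonds) and the 59 other pathway genes (grey points). NAS1, NAS2 and NAAT1 lie apart at the lower side, NAS3 at the left, and most others lie near 0.

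All of these values are from whole stem bases, in which fewer cells of a type and less RNA per cell cannot be told apart. Each couple is 1 line and its sister, so the transgene cannot be told apart from other differences between these sisters.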

How the data were processed

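RNA from rice stem bases was labelled as biotinylated cRNA and hybridised to 1-colour Affymetrix arrays, 1 per sample, per the labels' protocols. The deposited values are log2 values per probe set after RMA, per the submitters' processing notes; no version is named there. RMA evens the distributions of the arrays and compresses differences of dim genes, and no scaling was added. Of 36643 probe sets, the 24251 that the platform annotation pairs with a gene were tested. Symbols were taken from RefSeq's genes of assembly ASM3414082v1, without coordinates.

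Differences were tested in R 4.3.3 by limma 3.58.1, with lmFit and eBayes on the means of the 4 lines (all 12 arrays, two-sided, Benjamini-Hochberg over all tested probe sets, threshold 0.05), and it was tested on simulated data. The members and lists were chosen with earlier results of these data known. The pathway lists were matched on symbols and synonyms; before their values were looked at in this work, TOM20 and a gene named MS, both chance matches, were dropped, as were 2 records that join the names of a dioxygenase and of a heat stress factor. Genes were named if they were members, passed in a list, had the smallest p of a list without a pass, belonged to the NAS, NAAT, TOM or YSL families, or were the 3 named genes and the 1 other gene most correlated with a member. SAM1, SAM2, IRT1, VIT2, IRO3, ZIP1, NRAMP1, ARD4 and the green tissue markers were named after their values were seen. Labels call the 3 repetitions independent, and whether they came from separate seed lots is not stated, so p-values measure the spread between these samples. Alternatives were a further quantile normalization, median centring, the replicate number as a block, all probe sets, a filter on dim probe sets and leaving out each array.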

Additional observations from a re-analysis of the deposited data

Results flagged for a closer look

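NRAMP1 (LOC4342862), for an iron transporter, had its arrays separated in opposite directions in the couples, a difference that was flagged for its signs and did not pass the test between couples (-0.57 ± 0.17 as couple 67.5 minus couple 67.1, limma, adjusted p = 0.667). In couple 67.1 the OE arrays (3.25 to 3.82) lay above the null arrays (3.15 to 3.24), and in couple 67.5 the OE arrays (3.02 to 3.07) lay below the null arrays (3.18 to 3.41). The gap in couple 67.1 was 0.006 on the log2 scale. Such opposite separation occurred in 0.408% of all tested probe sets, and the gene was dim on every array.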

How the results depend on the processing

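The 21 member differences were recomputed under 15 alternatives each, and 311 of the 315 values moved by less than the replicate SD or, where tested, stayed on their side of the threshold. This rule is lenient for NAS1, whose replicate SD was 0.995. The sign turns of NAS1 in couple 67.1 and in the family contrast are counted among the 311. The 4 exceptions were those of YSL2 in the family contrast, whose values without single arrays ran from -0.325 to -0.249. NAS1 without single arrays ran from -1.91 to -1.10 on the mean of both couples. The count of pathway genes that passed was 1 in couple 67.5 after a further quantile normalization, which was NAAT1, and 0 to 1 without single arrays. In the family contrast it was 3 after that normalization and 2 to 12 without single arrays. The number of all probe sets that passed was 7 instead of 4 in couple 67.1, 5 instead of 8 for the difference between couples and 2154 instead of 3620 for the family contrast after quantile normalization. Without single arrays it ran from 14 to 46 on the mean of both couples, from 2 to 6 in couple 67.1, from 20 to 88 in couple 67.5, from 3 to 7 for the difference between couples and from 1075 to 5875 for the family contrast. With the replicate number as a block, 5613 probe sets passed in the family contrast, and NAS3 and YSL2 had adjusted p values of 5.179e-04 and 0.0146 there. The block changed no call of the members, and 7 pathway genes passed in the family contrast. Same-numbered arrays had deviations that correlated between -0.251 and 0.422, over 0.1 in 11 of 18 pairs, and 7 of 12 arrays correlated best with their own number. Whether equal numbers share an effect was not tested. The main fit did not pair the samples by number, and the labels do not say whether equal numbers mark a shared day. The deposited values carry no signal over background, which limits what can be said of dim genes such as YSL2. The causes of these shifts were not tested.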

Other observations

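Chosen after its values were seen, repetition 3 stood out for NAS1. On it NAS1 lay above its line mean in 4 of 4 lines, by 0.23 to 1.66 on the log2 scale, and NAS2 in 3 of 4 lines, between -0.08 and 1.46. On repetition 2 NAS1 lay below its line mean in 4 of 4 lines, by -0.10 to -1.11. On repetition 1, NAS3 lay below its line mean in 4 of 4 lines, by -0.07 to -0.29, and so did NAS2, by -0.06 to -0.95. The share of all probe sets with such patterns is not given here, so nothing is read from these counts. The labels do not say whether equal numbers mark a shared day.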
